A study of Mus musculus with 17 samples.

Results

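The 8 genes described here are the 4 mouse genes for opioid peptide precursors (Penk, Pdyn, Pnoc and Pomc) and the 4 for opioid receptors (Oprm1, Oprd1, Oprk1 and Oprl1). They were taken by symbol from a bulk RNA-seq table of 56953 genes, and all 8 passed the filter on low counts that left 23062 genes for testing. RNA came from the prefrontal cortex of 8-month-old mice of the B6C3F1/J background, in 5 WT, 6 hTau and 6 CgA-KO/hTau libraries. hTau mice, called PS19 in the study's text, express human Tau with the P301S change from a transgene that the Prnp promoter drives, as do the CgA-KO/hTau mice. In addition, CgA-KO/hTau mice lack Chga, the gene of chromogranin A (CgA), a protein of secretory granules, in the whole body and from conception. No group without the transgene lacks Chga, so the effect of the knockout alone is not seen here. The study asked what loss of CgA changes in mice with Tau pathology, and therefore WT and CgA-KO/hTau were each compared with hTau, and then with each other.

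Opioid peptides are cut from precursor proteins at pairs of basic residues and released from dense-core vesicles, the kind of granule that also holds chromogranins. Proenkephalin (Penk) gives the enkephalins, prodynorphin (Pdyn) the dynorphins, pronociceptin (Pnoc) nociceptin, and proopiomelanocortin (Pomc) beta-endorphin along with ACTH and the melanocortins. The receptors mu (Oprm1), delta (Oprd1), kappa (Oprk1) and nociceptin (Oprl1) couple to inhibitory G proteins. In the forebrain Penk is known above all from the striatal projection neurons that also carry the dopamine receptor gene Drd2, while in cortex Penk and Pdyn are found in subsets of neurons. Pomc is made chiefly in the pituitary and in neurons of the hypothalamus.

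The precursors differ in how many opioid peptides a transcript encodes, which is shown by the repeats in their coding sequences (GENCODE M21, GRCm38/mm10). In frame, the Penk-201 coding sequence of 804 bp held 6 copies of the Met-enkephalin core and 1 of the Leu-enkephalin core. The Pdyn-201 coding sequence of 744 bp held 3 Leu-enkephalin cores, the Pomc-201 coding sequence of 705 bp held 1 Met-enkephalin core, and the Pnoc-202 coding sequence of 636 bp held 1 nociceptin core. The first Met, the Leu and the last Met copy of Penk, all copies of Pdyn and the single copies of Pomc and Pnoc are printed on the coding strand, with the 15 bases of the core in capitals and the 2 flanking codons on each side in lower case.
Penk, first Met-enkephalin core, exon 2, chr4:4134328-4134354 (minus strand): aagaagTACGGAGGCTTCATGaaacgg
Penk, Leu-enkephalin core, exon 2, chr4:4133935-4133961 (minus strand): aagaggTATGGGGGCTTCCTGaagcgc
Penk, last Met-enkephalin core, exon 2, chr4:4133842-4133868 (minus strand): aaaagaTACGGGGGCTTTATGcggttc
Pdyn, first Leu-enkephalin core, exon 4, chr2:129688232-129688258 (minus strand): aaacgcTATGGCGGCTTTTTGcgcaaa
Pdyn, second Leu-enkephalin core, exon 4, chr2:129688124-129688150 (minus strand): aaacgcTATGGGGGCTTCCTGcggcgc
Pdyn, last Leu-enkephalin core, exon 4, chr2:129688067-129688093 (minus strand): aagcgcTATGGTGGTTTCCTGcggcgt
Pomc, Met-enkephalin core at the start of beta-endorphin, exon 3, chr12:3960367-3960393 (plus strand): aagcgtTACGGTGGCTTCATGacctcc
Pnoc, nociceptin core, exon 3, chr14:65404872-65404898 (minus strand): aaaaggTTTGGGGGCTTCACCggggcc
The codons before every printed core code for a pair of basic residues. A pair of basic codons also followed 5 of the 7 Penk cores and 3 of the 3 Pdyn cores, but not the Pomc or the Pnoc core. The core of the Leu copy of Penk and that of the second Pdyn copy hold the same 15 bases. Each set of copies lies in 1 exon of its gene.

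Total counts were 8838334 to 227651681 per library, with WT replicate 4 the shallowest. The deposited counts stand for about 3 per sequenced fragment, so a gene at 0 was allowed up to 9 counts (3 fragments), which covers counting error only. Chga was listed at 0 in each CgA-KO/hTau library and at 152 to 180 CPM (counts relative to the library total, TMM-adjusted) in the WT and 162 to 177 CPM in the hTau libraries. Prnp, whose promoter drives the transgene, was at 748 to 914 CPM in WT, 1974 to 2368 CPM in hTau and 1236 to 2079 CPM in CgA-KO/hTau. Mapt, the Tau gene, was at 199 to 740 CPM in WT, lowest in replicate 4, at 831 to 952 CPM in hTau and at 584 to 868 CPM in CgA-KO/hTau, in a table of mouse genes where reads of the human transgene may or may not have counted. Libraries stood apart within groups. CgA-KO/hTau replicates 1 to 3 had 13.8% to 18.2% of counts in mitochondrial genes against 3.84% to 10.9% in replicates 4 to 6, and their summed level of 12 interneuron markers was 902 to 911 CPM against 1363 to 1406 CPM. The 12 glia and vessel markers summed to 2206 to 2513 CPM in replicates 1 to 3 of this group and to 1472 to 1557 CPM in replicates 4 to 6. The same libraries, like replicates 1 to 3 of the other groups, carried Ddx3y, a Y-linked gene, at 49.8 CPM or more, whereas it was at 0.0582 CPM or less in the rest. The study reports male and female mice in each group, while the labels name no sex per library. Further, hTau replicates 4 to 6, and CgA-KO/hTau replicates 1 and 3, resembled each other more than other libraries of 1 group did, by the median absolute deviation of log2 ratios. It was 1.61 to 2.37 times as far as counting noise against at least 3.68 times for the other pairs. By the SD of the log2 ratios they did not stand apart, at 6.17 to 9.21 times counting noise against 5.91 times or more for other pairs. All libraries were kept as separate samples, and the values with these near-identical libraries averaged, or with CgA-KO/hTau replicates 1 to 3 left out, are given where they end a call. The labels number the libraries without naming an animal for each, so the p-values measure the spread between these samples.

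The label of prefrontal cortex was checked against marker genes. The cortical glutamatergic markers (12 genes, such as Slc17a7) summed to 1584 to 2989 CPM in WT, 2297 to 2523 CPM in hTau and 1495 to 2289 CPM in CgA-KO/hTau. At FDR under 0.05, 2 of them (Bcl11b and Foxp2) were higher and 2 (Cux2 and Emx1) lower in WT than in hTau. In CgA-KO/hTau 2 (Emx1 and Lamp5) were lower than in hTau and 0 higher. Markers of the striatum, which lies under the cortex, were not equal between groups. Their summed level over 20 genes was 1331 to 4294 CPM in WT, 542 to 630 CPM in hTau, 866 to 3037 CPM in CgA-KO/hTau replicates 1 to 3 and 532 to 536 CPM in CgA-KO/hTau replicates 4 to 6. Drd2, which defines striatal neurons of the Penk class, was at 33.4 to 132 CPM in WT, 0.601 to 1.31 CPM in hTau and 0.889 to 83.0 CPM in CgA-KO/hTau. In total, 18 of the 20 striatum markers were higher in WT than in hTau, 12 were higher in CgA-KO/hTau than in hTau, and none of either set was lower (edgeR, FDR under 0.05). Septum and basal forebrain markers, at lower levels, also differed, with 7 of 10 higher in WT than in hTau, 2 higher in CgA-KO/hTau than in hTau and none lower, and sums of 32.9 to 84.9 CPM in WT, 23.6 to 32.0 CPM in hTau and 17.9 to 38.1 CPM in CgA-KO/hTau. Of the 9 thalamus and habenula markers tested, 2 were higher and 1 was lower in WT than in hTau, and 2 were higher in CgA-KO/hTau than in hTau. In bulk RNA, a different share of a tissue in the sample, fewer cells of a type and less RNA per cell cannot be told apart.

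Per exon length, Penk was the most abundant of the 8 transcripts in each group and Pdyn the next. In WT the mean level per length was 315 ± 133 CPM per kb (SD, n = 5) for Penk, 15.2 ± 3.88 for Pdyn, 8.32 ± 1.27 for Oprl1, 6.96 ± 1.58 for Oprd1, 3.45 ± 5.14 for Pomc, 2.58 ± 0.792 for Pnoc, 1.63 ± 1.16 for Oprk1 and 0.349 ± 0.0943 for Oprm1. Penk and Pdyn, and Pdyn and Oprl1, did not overlap between WT libraries, whereas each later neighbour in this order overlapped the one before it. In hTau the order began with Penk at 19.9 ± 3.74 CPM per kb (SD, n = 6) and Pdyn at 11.7 ± 1.19, which did not overlap, and ended with Oprk1 at 0.298 ± 0.179 and Oprm1 at 0.158 ± 0.0279, which did. The delta and nociceptin receptor genes were the most abundant receptor transcripts in each group, and their libraries overlapped. In CgA-KO/hTau Penk was at 85.2 ± 81.4 CPM per kb (SD, n = 6) and Pdyn at 8.11 ± 2.02, and Pomc was the lowest at 0.257 ± 0.184.

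**Figure D1:**
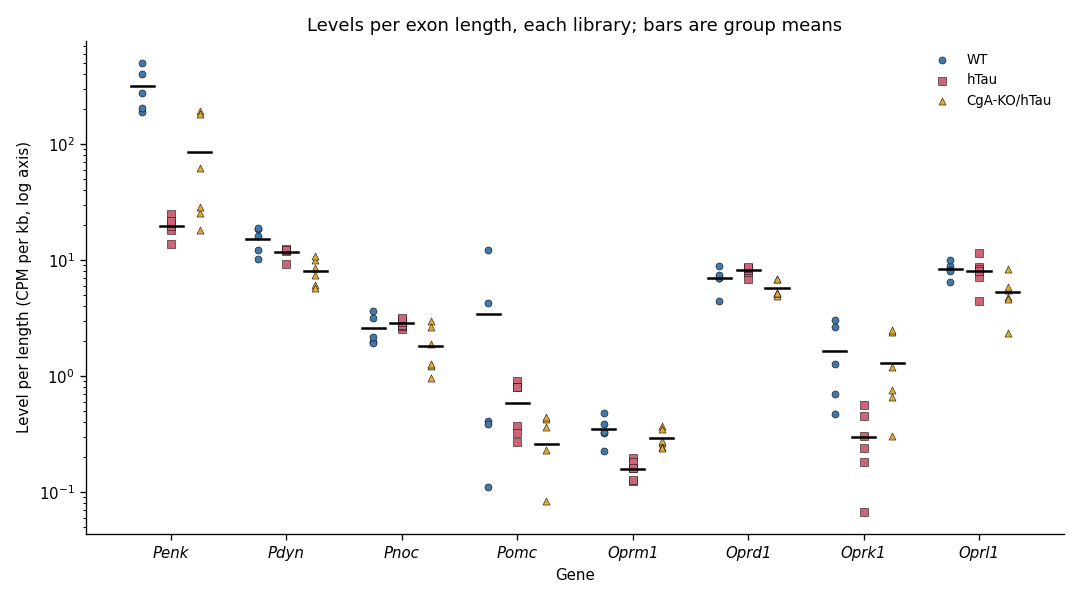
Level per exon length (CPM per kb, log axis) of the 8 opioid genes in each library, by group. Points are libraries, bars are group means, and the CgA-KO/hTau library with a Pomc count of 0 has no point. Penk and Pdyn lead in each group, and Oprm1 is the lowest in WT and hTau.

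Of the 8 genes, 3 (Penk, Oprm1 and Oprk1) were higher in WT than in hTau and 0 were lower at an adjusted p (FDR) under 0.05 by edgeR's quasi-likelihood test, while 3.95% of all genes tested were higher and 1.95% lower. By limma voom, Pdyn was also called, and DESeq2 called 3 members as well. The threshold in the study's methods (an absolute log2 fold change over 0.5 and an unadjusted p under 0.01) named the same 3 genes as higher and 0 as lower, with 4.57% of all genes higher and 2.81% lower. WT and hTau libraries did not overlap for 2 members, Penk and Oprm1, both higher in WT, as held for 4.39% of all genes. The median log2 fold change of the members was 0.75 and that of all genes tested -0.0097.

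Against hTau, CgA-KO/hTau had 3 members higher (again Penk, Oprm1 and Oprk1) and 1 lower (Oprd1) at FDR under 0.05, with 5.50% of all genes higher and 4.22% lower. The threshold of the study's methods named the same 3 as higher (6.30% of all genes) and Pdyn and Oprd1 as lower (3.44% of all genes). Libraries did not overlap for 1 member, Oprm1, as held for 2.84% of all genes in that direction. The median of the members was -0.52 on the log2 scale against 0.026 over all genes. No member was called when CgA-KO/hTau replicates 1 to 3 were left out, nor when the near-identical libraries were averaged, where 346 and 156 genes in all were called against 2242. The count was 2 without any of hTau replicates 4, 5 or 6 or of CgA-KO/hTau replicates 1, 2 or 3, and 7 without CgA-KO/hTau replicate 4.

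CgA-KO/hTau and WT differed in Penk, Pdyn and Pomc, each lower in CgA-KO/hTau, with 3 members lower and 0 higher at FDR under 0.05, while 2.89% of all genes were lower and 3.56% higher. The threshold of the study's methods named the same 3, with 3.09% of all genes lower and 4.66% higher. All 8 fold changes were below 0, with a median of -0.58 against 0.0090 over all genes. No member was called when only these groups entered the fit, where 266 genes in all were called against 1489, and the count fell to 1 without WT replicate 3 or without CgA-KO/hTau replicate 2. Because the comparisons share groups, their values are set side by side and not as independent results.

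**Figure D2:**
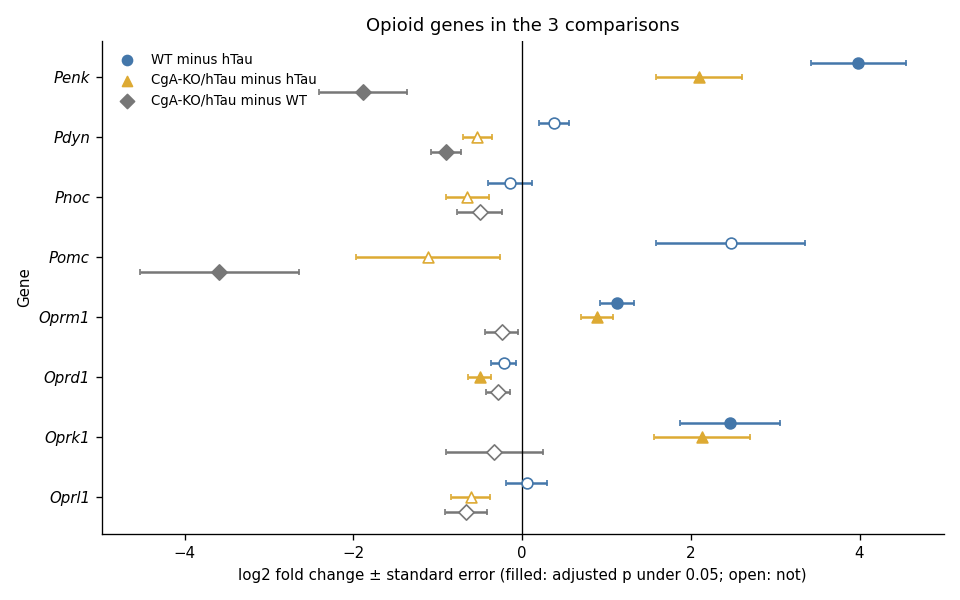
log2 fold change (x axis) with its standard error for the 8 opioid genes (y axis) in the 3 comparisons, from edgeR over all 17 libraries, with filled symbols for an adjusted p under 0.05. Penk has the largest fold change against hTau in WT (3.99), and Pomc the most negative one, in CgA-KO/hTau against WT (-3.59).

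Penk (chr4:4133531-4138819, minus strand), the enkephalin precursor gene, stood at 308, 338, 654, 452 and 819 CPM in WT replicates 1 to 5. In hTau it ranged from 22.7 to 41.1 CPM with a median of 33.1 CPM. CgA-KO/hTau replicates 1, 2 and 3 were at 315, 101 and 300.3 CPM, and replicates 4, 5 and 6 at 29.9, 41.3 and 46.5 CPM. Thus each WT library lay above each hTau library, and within CgA-KO/hTau replicates 1 to 3 reached up to the lower end of the WT range while replicates 4 to 6 were within or just above the hTau range. Mean levels were 514 ± 218 CPM for the WT libraries (SD, n = 5), 32.5 ± 6.12 CPM for hTau (SD, n = 6) and 139 ± 133 CPM for CgA-KO/hTau (SD, n = 6), so that WT was 15.8 times as high as hTau. The log2 fold change was 3.99 ± 0.56 (SE) for WT against hTau with an adjusted p of 0.000537, and 2.10 ± 0.51 for CgA-KO/hTau against hTau with an adjusted p of 0.0183. Against WT, CgA-KO/hTau was lower by a log2 fold change of -1.89 ± 0.52 with an adjusted p of 0.0375.

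The striatum marker level moved with Penk in the comparisons with hTau. For CgA-KO/hTau against WT the list median was -0.94, with 1 of the 20 markers called, as lower. The part of the striatum marker level in the Penk result was not tested as a cause. With that level as a covariate, the difference of WT from hTau was 1.52 and still called, but that of CgA-KO/hTau from hTau was 0.41 with an adjusted p of 0.185. That of CgA-KO/hTau from WT was -1.11 and still called (adjusted p = 0.00173). Over all alternatives the difference of WT from hTau was 1.52 to 4.21, and the call was lost in 1, with the claustrum and deep-layer marker level as a covariate (3.37, adjusted p = 0.157). Without CgA-KO/hTau replicates 1 to 3 the difference of CgA-KO/hTau from hTau was 0.26 with an adjusted p of 0.635, while that of CgA-KO/hTau from WT was -3.71 with an adjusted p of 2.97e-05. Averaging the near-identical libraries gave 1.72 and an adjusted p of 0.154 for CgA-KO/hTau against hTau. The call against WT was also lost without WT replicate 3 (adjusted p = 0.0734), WT replicate 5 (0.112), hTau replicate 5 (0.0505) or CgA-KO/hTau replicate 2 (0.0870), 5 (0.0542) or 6 (0.0527).

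The difference in Penk between CgA-KO/hTau and hTau was not the same in the libraries with and without Ddx3y. Within the libraries with Ddx3y above 1 CPM (3 per group), the log2 fold change was 2.95 with an adjusted p of 0.00231, and within those below 1 CPM it was 0.20 with an adjusted p of 0.729. The interaction term of the edgeR fit was 2.72 ± 0.56 (SE) with an adjusted p of 0.00715. For CgA-KO/hTau against WT, it was -0.85 with an adjusted p of 0.204 above 1 CPM and -4.01 with an adjusted p of 0.00111 below it, a difference not tested by an interaction term. Ddx3y, the striatum marker level, the glia and vessel marker level and the mitochondrial share were all higher in the same CgA-KO/hTau libraries and cannot be told apart. For WT against hTau the interaction term for Penk was -0.44 ± 0.58 with an adjusted p of 0.803.

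Pdyn (chr2:129686565-129699844, minus strand), the dynorphin precursor gene, stood at 46.5, 35.0, 53.4, 29.3 and 54.5 CPM in WT replicates 1 to 5. It ranged from 27.0 to 35.8 CPM in hTau (median 35.3 CPM) and from 16.7 to 31.0 CPM in CgA-KO/hTau (median 23.1 CPM). The CgA-KO/hTau libraries were mostly below those of WT and hTau, with an overlap at 29.3 to 31.0 CPM for WT and at 27.0 to 31.0 CPM for hTau. The log2 fold change of CgA-KO/hTau against WT was -0.90 ± 0.18 (SE) with an adjusted p of 0.00695. Against hTau it was -0.53 ± 0.17 with an unadjusted p of 0.00589 and an adjusted p of 0.0552 by edgeR, and for WT against hTau it was 0.37 ± 0.18 with an adjusted p of 0.242. The difference of WT from hTau was called by limma voom (0.39, adjusted p = 0.0461). With the striatum marker level as a covariate it was 0.040 (adjusted p = 0.941). CgA-KO/hTau replicates 1 to 3 had a mean of 23.7 CPM and replicates 4 to 6 of 23.1 CPM, unlike the split seen for Penk. Leaving out replicates 1 to 3 gave -0.92 against WT with an adjusted p of 0.0317 and -0.56 against hTau with an adjusted p of 0.190. With only the groups compared in the fit, the adjusted p against WT was 0.051. The difference from hTau was called by DESeq2 (-0.51, adjusted p = 0.0337), by limma voom (-0.57, 0.0128), with only the groups compared in the edgeR fit (-0.52, 0.0377) and with the striatum marker covariate (-0.68, 0.0381). It was also called without WT replicate 4 (adjusted p = 0.0289) and without CgA-KO/hTau replicate 4 (0.0213). Among the interneuron markers, Gad1, Gad2, Slc32a1, Sst and Reln (5 of 12) were also lower in CgA-KO/hTau than in WT and none was higher. Their sum was 1464 to 1831 CPM in WT and 1510 to 1703 CPM in hTau. In CgA-KO/hTau the marker sum was 902 to 911 CPM in replicates 1 to 3 and 1363 to 1406 CPM in replicates 4 to 6, a split that Pdyn did not show. Replicate 6 had the lowest Pdyn level of this group and its highest marker sum. The part of these markers in the Pdyn level was not tested.

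Because Penk varied widely and Pdyn did not, their balance differed between libraries. Per exon length, the Penk level was 11.7 to 27.2 times that of Pdyn in WT libraries (median 21.6) and 1.13 to 2.69 times in hTau libraries (median 1.66). In CgA-KO/hTau replicates 1, 2 and 3 it was 22.6, 10.2 and 18.4 times, and in replicates 4, 5 and 6 it was 1.71, 3.38 and 4.92 times. Penk therefore made up 85.8% to 93.0% of the summed CPM of the 4 precursors in WT, 34.7% to 55.4% in hTau, and 44.2% to 91.9% in CgA-KO/hTau.

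Pnoc (chr14:65400673-65425472, minus strand), the nociceptin precursor gene, was at 4.19, 7.89, 4.17, 4.68 and 6.86 CPM in WT replicates 1 to 5, at 5.51 to 6.79 CPM in hTau (median 6.16 CPM) and at 2.07 to 6.40 CPM in CgA-KO/hTau (median 3.42 CPM). WT and hTau overlapped throughout, and no comparison was called. The log2 fold change of CgA-KO/hTau was -0.65 ± 0.25 (SE) against hTau with an adjusted p of 0.102 and -0.50 ± 0.26 against WT with an adjusted p of 0.283. CgA-KO/hTau replicates 1 to 3 were at 2.07 to 2.75 CPM, below every other library, and replicates 4 to 6 were at 4.10 to 6.40 CPM. The low libraries were also those low in interneuron markers, of which Gad1, Slc32a1, Pvalb, Cck and Htr3a (5 of 12) were lower in CgA-KO/hTau than in hTau and none was higher, and their part in the Pnoc level was not tested. Without replicates 1 to 3 the differences were -0.20 (adjusted p = 0.647) from hTau and -0.044 (adjusted p = 0.952) from WT. The difference from hTau was called by limma voom (-0.94, adjusted p = 0.0101), with the Ddx3y covariate (-0.74, 0.0479), in the libraries with Ddx3y above 1 CPM (-1.26, 0.00712) and without CgA-KO/hTau replicate 4 (-0.84, 0.0259). That from WT was called with the striatum marker covariate (-1.12, adjusted p = 0.00557) and in the libraries with Ddx3y above 1 CPM (-1.12, 0.0168). With the striatum covariate, WT against hTau turned from -0.14 to 0.78 (adjusted p = 0.106). The interaction term with the Ddx3y class was -1.04 ± 0.35 with an adjusted p of 0.0676.

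Pomc (chr12:3954951-3960642, plus strand), the ACTH and beta-endorphin precursor gene, was at 1.19 CPM or less in all libraries but 2, both of WT. WT replicates 1 to 5 were at 0.145, 0.538, 5.60, 16.0 and 0.512 CPM, hTau at 0.353 to 1.19 CPM (median 0.772 CPM), and CgA-KO/hTau at 0 to 0.578 CPM (median 0.392 CPM). The 5 counts of WT replicate 1, the 6 of CgA-KO/hTau replicate 5 and the 0 of CgA-KO/hTau replicate 6 were under the limit of 9 counts, which is 0.260 CPM in the last of these libraries. WT libraries lay within and on either side of the hTau range, and only the comparison of CgA-KO/hTau with WT was called, with a log2 fold change of -3.59 ± 0.94 (SE) and an adjusted p of 0.0301. Without WT replicate 4, the shallowest library, it was -2.31 with an adjusted p of 0.0832, and it also lost the call without WT replicate 3 (-3.47, adjusted p = 0.0579) or CgA-KO/hTau replicate 1 (-3.68, 0.0515) or 2 (-3.74, 0.0546), and by voom (-1.80, 0.359). Leaving out CgA-KO/hTau replicates 1 to 3 gave -4.66 with an adjusted p of 0.0821, and averaging the near-identical libraries -3.73 with an adjusted p of 0.0817. For WT against hTau the log2 fold change was 2.47 ± 0.89 with an adjusted p of 0.114, and 1.18 with an adjusted p of 0.444 without WT replicate 4.

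Pituitary hormone genes were detected in some of the same libraries. Prl, the prolactin gene, was at 30.7 CPM in WT replicate 4, 6.62 CPM in WT replicate 5 and 1.21 CPM in WT replicate 3, at 1.61 to 1.99 CPM in hTau replicates 4 to 6, and listed at 0 in every other library. Gh, the growth hormone gene, was at 0.661 to 3.13 CPM in WT replicates 2 to 5, at 0.310 to 0.426 CPM in hTau replicates 4 to 6, and at 0 elsewhere. WT replicate 5 thus had Prl but Pomc at 0.512 CPM. Within hTau, Pomc was at 1.05 to 1.19 CPM in replicates 4 to 6 and at 0.353 to 0.492 CPM in replicates 1 to 3. Replicates 4 to 6 of hTau are near-identical libraries, so their likeness in Pomc, Prl and Gh may not be that of separate samples. The summed level of the 10 pituitary markers ranged from 0.926 to 34.0 CPM in WT, from 0.947 to 3.63 CPM in hTau and from 0.876 to 1.53 CPM in CgA-KO/hTau, and Prl and Gh were at 0 in all 6 CgA-KO/hTau libraries. The 12 hypothalamus markers summed to 3.76 to 29.2 CPM in WT, 1.22 to 1.82 CPM in hTau and 0.289 to 3.30 CPM in CgA-KO/hTau. The part of either source in the Pomc level was not tested.

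**Figure D3:**
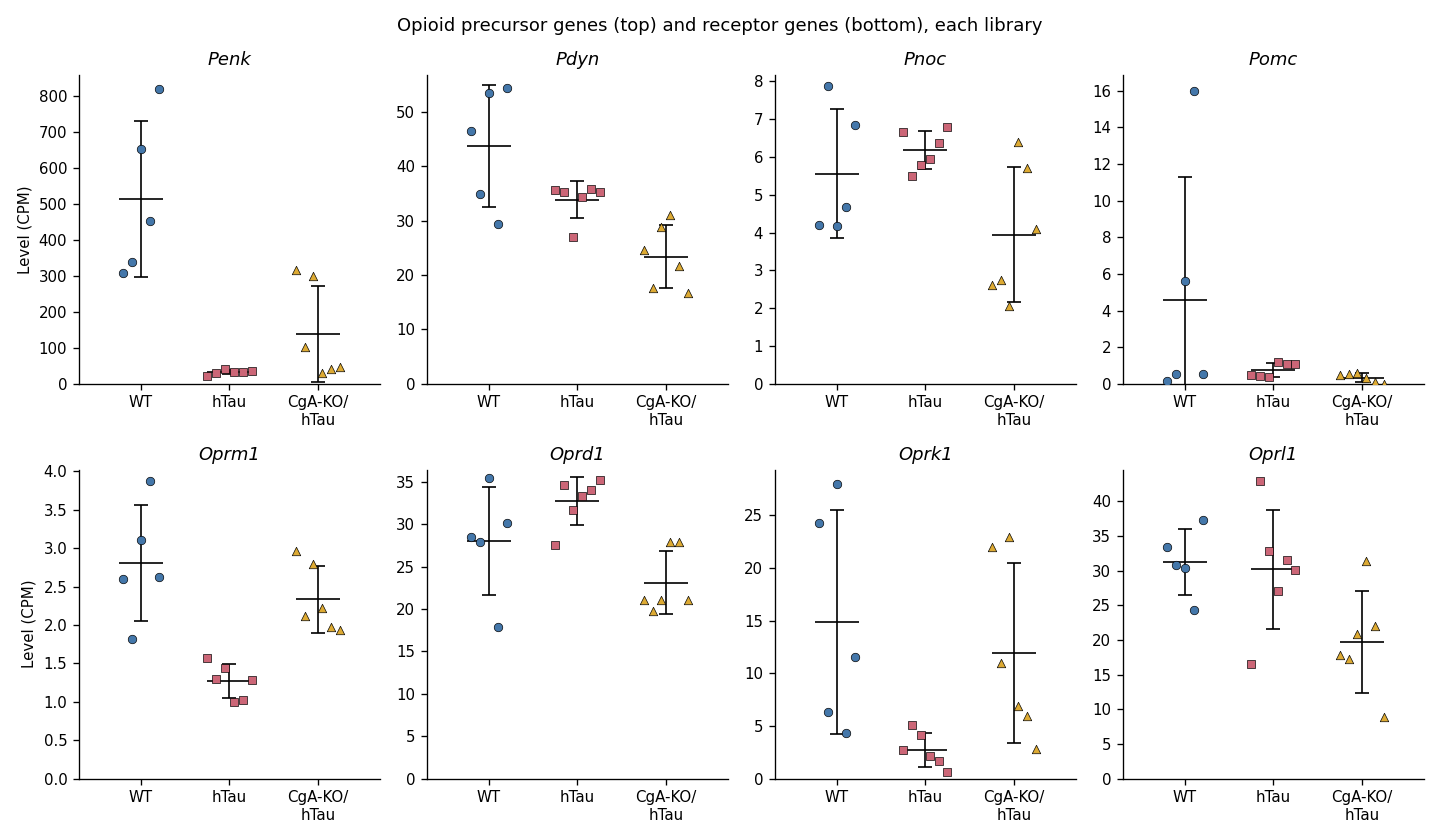
Level (CPM, y axis starting at 0) of each opioid gene in each library, by group (x axis), with the mean and SD, whose lower end is cut at 0 for Pomc. Points run from replicate 1 on the left in each group. Penk and Oprm1 libraries of WT lie above all hTau libraries, and CgA-KO/hTau replicates 1 and 3 stand above replicates 4 to 6 for Penk and Oprk1.

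Among the receptors, Oprm1 (chr10:6758506-7038198, plus strand), the mu receptor gene and the main target of morphine, was the lowest in level, and the only receptor gene whose groups did not overlap in a comparison with hTau. It was at 2.60, 1.81, 3.11, 3.88 and 2.63 CPM in WT replicates 1 to 5, at 0.999 to 1.57 CPM in hTau (median 1.29 CPM) and at 1.93 to 2.96 CPM in CgA-KO/hTau (median 2.17 CPM). All WT and all CgA-KO/hTau libraries lay above all hTau libraries. The log2 fold change was 1.13 ± 0.20 (SE) for WT against hTau with an adjusted p of 0.00240, and 0.89 ± 0.19 for CgA-KO/hTau against hTau with an adjusted p of 0.00937. WT and CgA-KO/hTau overlapped, with a log2 fold change of -0.24 ± 0.20 and an adjusted p of 0.528. Both calls held without any single library. The difference of CgA-KO/hTau from hTau was 0.68 with an adjusted p of 0.126 without CgA-KO/hTau replicates 1 to 3, and 0.71 with an adjusted p of 0.128 when near-identical libraries were averaged. With the striatum marker level as a covariate, the difference of WT from hTau was 0.77 with an adjusted p of 0.0654. With the claustrum and deep-layer marker level as a covariate, the differences were 0.90 (adjusted p = 0.189) and 0.61 (adjusted p = 0.422). The interaction with the Ddx3y class was -0.015 ± 0.32 with an adjusted p of 0.987 for CgA-KO/hTau against hTau.

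Oprd1 (chr4:132110726-132144486, minus strand), the delta receptor gene, whose product binds enkephalins, was at 28.4, 27.9, 35.4, 17.9 and 30.2 CPM in WT replicates 1 to 5. It was at 27.5 to 35.2 CPM in hTau (median 33.7 CPM) and at 19.7 to 27.9 CPM in CgA-KO/hTau (median 21.1 CPM). The hTau and CgA-KO/hTau libraries overlapped only between 27.5 and 27.9 CPM. The log2 fold change of CgA-KO/hTau against hTau was -0.50 ± 0.14 (SE) with an adjusted p of 0.0300, that against WT -0.28 ± 0.14 with an adjusted p of 0.267, and that of WT against hTau -0.22 ± 0.14 with an adjusted p of 0.410. The direction held in all alternatives, from -0.59 to -0.36, but the call was lost without hTau replicate 2 (adjusted p = 0.0662), 4 (0.0549), 5 (0.0597) or 6 (0.0615), or without CgA-KO/hTau replicate 1 (0.0672), 2 (0.0756), 3 (0.0623) or 6 (just over the threshold). Without CgA-KO/hTau replicates 1 to 3 it was -0.36 with an adjusted p of 0.272. Averaging the near-identical libraries gave -0.44 with an adjusted p of 0.2005. The call was also lost with the replicate block (-0.50, adjusted p = 0.0826) and with the striatum marker covariate (-0.47, 0.0695). It was lost too with the claustrum and deep-layer marker covariate (-0.45, 0.446) and in the libraries with Ddx3y below 1 CPM (-0.43). In all, 14 of 32 alternatives lost the call. Against WT, the difference was called by limma voom (-0.41, adjusted p = 0.0454), in the libraries with Ddx3y above 1 CPM (-0.56, 0.0142) and without WT replicate 4 (-0.40, 0.0436).

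Oprk1 (chr1:5588466-5606131, plus strand), the kappa receptor gene, whose product binds dynorphins, varied the most of the receptors. It was at 24.2, 6.35, 28.0, 4.33 and 11.5 CPM in WT replicates 1 to 5 and at 0.615 to 5.09 CPM in hTau (median 2.46 CPM). CgA-KO/hTau replicates 1, 2 and 3 were at 22.0, 11.0 and 22.9 CPM, and replicates 4, 5 and 6 at 6.88, 5.97 and 2.80 CPM. The WT range began at 4.33 CPM and the CgA-KO/hTau range at 2.80 CPM, both within the hTau range, and both reached above 20 CPM. The log2 fold change was 2.46 ± 0.60 (SE) for WT against hTau with an adjusted p of 0.0193, 2.13 ± 0.57 for CgA-KO/hTau against hTau with an adjusted p of 0.0280, and -0.33 ± 0.57 for CgA-KO/hTau against WT with an adjusted p of 0.797. The first call was lost without WT replicate 3 (2.11, adjusted p = 0.0521). The second was lost without hTau replicate 4 (adjusted p = 0.0565), 5 (0.0607) or 6 (0.0518) or CgA-KO/hTau replicate 1 (0.0674), 2 (0.0529) or 3 (0.0638), and was 0.94 with an adjusted p of 0.412 without CgA-KO/hTau replicates 1 to 3 together. Without those replicates, CgA-KO/hTau against WT was -1.52 with an adjusted p of 0.249. Averaging the near-identical libraries gave 2.19 (adjusted p = 0.101) and 1.59 (adjusted p = 0.211), and the striatum marker covariate 0.57 (adjusted p = 0.637) and 0.99 (adjusted p = 0.213).

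Markers of the claustrum and the deep cortical layers, taken as a sum, had their lowest median in hTau, as did Oprk1. The 9 markers found in the table summed to 261 to 407 CPM in WT, 106 to 261 CPM in hTau and 336 to 485 CPM in CgA-KO/hTau, and 5 were higher in each of the comparisons with hTau and none was lower. Nr4a2, which marks claustrum and layer-6b neurons, was at 48.0 to 81.2 CPM in WT, 9.22 to 48.7 CPM in hTau and 89.1 to 178 CPM in CgA-KO/hTau. Within WT and within CgA-KO/hTau, Nr4a2 did not follow Oprk1. It was lowest of WT in replicate 3, the highest in Oprk1, and highest of CgA-KO/hTau in replicate 6, the lowest in Oprk1. The list sum was 441 to 485 CPM in CgA-KO/hTau replicates 1 to 3 and 336 to 366 CPM in replicates 4 to 6. In hTau, replicate 1 had the highest sum, with Oprk1 at 2.75 CPM. A fit with the mean log2 level of this list as a covariate was added after the data had been seen. Oprk1 was then at -0.16 ± 1.10 (SE, adjusted p = 0.960) for WT against hTau. For CgA-KO/hTau against hTau it was at -0.89 ± 1.22 (adjusted p = 0.772). The summed list levels of hTau lay at or below those of the other groups, so this fit cannot settle the sign. In that fit 63 and 30 genes in all were called, against 1361 and 2242. The part of these cells in the Oprk1 level was not tested further.

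**Figure D4:**
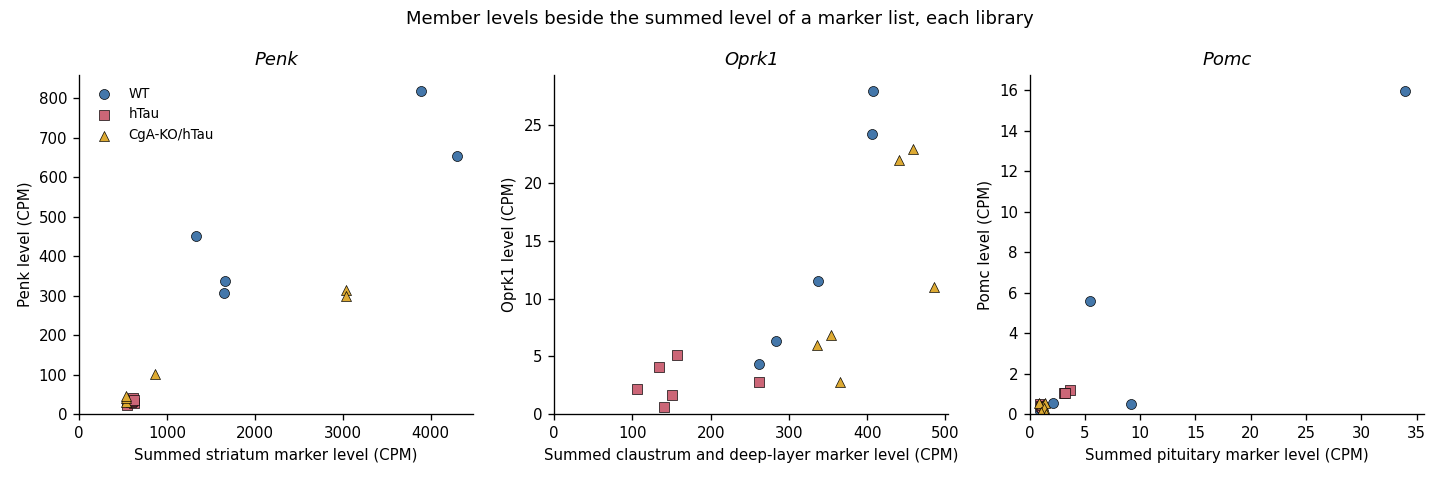
Level of Penk, Oprk1 and Pomc (y axes, CPM) beside the summed level of the striatum, claustrum and deep-layer, and pituitary marker lists (x axes, CPM) in the 17 libraries. All WT libraries have striatum sums of 1331 CPM or more and all hTau libraries of 630 CPM or less, and the highest Pomc level goes with the highest pituitary sum, in WT replicate 4.

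Oprl1 (chr2:181715016-181720985, plus strand), the nociceptin receptor gene, was at 33.4, 30.8, 30.3, 24.3 and 37.3 CPM in WT replicates 1 to 5, at 16.5 to 42.9 CPM in hTau (median 30.9 CPM) and at 8.86 to 31.4 CPM in CgA-KO/hTau (median 19.4 CPM). The groups overlapped, and no comparison was called. CgA-KO/hTau was lower by -0.61 ± 0.24 (SE) on the log2 scale against hTau with an adjusted p of 0.103 and by -0.66 ± 0.25 against WT with an adjusted p of 0.120, and WT differed from hTau by 0.05 ± 0.25 with an adjusted p of 0.941. Both differences of CgA-KO/hTau were called without its replicate 4, the highest of that group (-0.79, adjusted p = 0.0266, and -0.84, adjusted p = 0.0367), and that from hTau also by limma voom over all libraries (-0.62, adjusted p = 0.0408).

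For each member, the 3 genes of 23062 whose log2 CPM correlated best with it over the 17 libraries were listed, as a description, since the libraries share groups, tissue content and depth. Penk was most like Slc35d3 (r = 0.987, Spearman's rho = 0.887), Drd2 (r = 0.982, rho = 0.902) and Stk32a (r = 0.979, rho = 0.831), and with group means removed r was 0.959, 0.972 and 0.975. Pdyn was most like Hsdl1 (r = 0.935), Arxes1 (r = 0.926) and Slc32a1 (r = 0.924), the last of which encodes the vesicular GABA transporter. The genes most like Pnoc were Nectin1, Tbc1d22b and Nop2 (r = 0.930, 0.930 and 0.927), and those most like Pomc were Cenpi, Slc31a2 and Wls (r = 0.881, 0.838 and 0.831). Oprm1 was most like the glycine receptor gene Glra2 (r = 0.931), Npbwr1 (r = 0.905) and Zfp503 (r = 0.903), with r of 0.735, 0.543 and 0.570 once group means were removed. Oprd1 was most like the potassium channel gene Kcnh2 (r = 0.961), Mpp3 (r = 0.956) and Rtn4ip1 (r = 0.955). Oprk1 was most like Gfra1 (r = 0.921), Sema5b (r = 0.913) and Kcnk2 (r = 0.875), and Oprl1 like E2f3 (r = 0.881), Gtpbp2 (r = 0.865) and Gm16397 (r = 0.865).

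Genes that act with the opioid peptides were counted from lists of 64 genes, all tested. Of all genes tested, 3.95% were called higher and 1.95% lower in WT than in hTau. For CgA-KO/hTau the shares were 5.50% higher and 4.22% lower against hTau, and 3.56% higher and 2.89% lower against WT. The counts of these lists and of those in the next paragraph were not tested against these shares. None of the 7 precursor processing genes, among them the convertase genes Pcsk1 and Pcsk2 and the carboxypeptidase gene Cpe, was called in any comparison, with list medians of -0.14, -0.23 and -0.12 for WT against hTau, CgA-KO/hTau against hTau and CgA-KO/hTau against WT. Their summed level was 2438 to 2731 CPM in WT, 2870 to 3010 CPM in hTau and 2784 to 2967 CPM in CgA-KO/hTau. Of the 8 peptide breakdown genes, Mme, which encodes the enkephalin-cleaving neprilysin, and Ece2 were higher in WT than in hTau (log2 fold change 1.299 ± 0.35, adjusted p = 0.0324, and 0.71 ± 0.20, adjusted p = 0.0441), and the other comparisons had 0 calls. Mme was at 21.2 to 49.1 CPM in WT, 6.52 to 15.8 CPM in hTau and 6.16 to 22.8 CPM in CgA-KO/hTau.

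Of the 19 genes of receptor coupling and effectors, Kcnj5, a subunit of potassium channels that opioid receptors open, was higher in both WT (2.26 ± 0.54, adjusted p = 0.0173) and CgA-KO/hTau (1.92 ± 0.51, adjusted p = 0.0271) than in hTau, at levels of at most 1.62 CPM. Adcy1, an adenylate cyclase gene, was lower in WT than in hTau (-1.02 ± 0.16, adjusted p = 0.00137) and higher in CgA-KO/hTau than in WT (0.79 ± 0.16, adjusted p = 0.00904). The calcium channel genes Cacna1a (-0.43 ± 0.12, adjusted p = 0.0378) and Cacna1b (-0.39 ± 0.11, adjusted p = 0.0330) were lower in CgA-KO/hTau than in hTau, and the rest of the list, 17, 16 and 18 genes in the 3 comparisons, was not called. Of the 18 receptor regulation genes, Rgs9, also a striatum marker, was higher in WT (4.04 ± 0.81, adjusted p = 0.00615) and CgA-KO/hTau (2.90 ± 0.76, adjusted p = 0.0252) than in hTau, and Ackr3, which encodes a scavenger of opioid peptides, was lower in CgA-KO/hTau than in WT (-0.61 ± 0.16, adjusted p = 0.0307). Of 12 transcription factor genes that act on the precursor genes, Jun was higher in WT than in hTau (0.67 ± 0.17, adjusted p = 0.0270) and lower in CgA-KO/hTau than in WT (-0.61 ± 0.17, adjusted p = 0.0397). Atf3, a stress-response gene, was higher in CgA-KO/hTau than in hTau (2.06 ± 0.43, adjusted p = 0.00860) and than in WT (2.06 ± 0.47, adjusted p = 0.0151), at levels of at most 3.13 CPM, and Creb1, Fos and the other members were not called.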

How the data were processed

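RNA-seq of prefrontal cortex was analysed in 5 WT, 6 hTau and 6 CgA-KO/hTau libraries. The authors trimmed reads with Trimmomatic 0.39, aligned them to mm10 with STAR 2.7.10b, quantified genes with StringTie 1.3.6 and deposited whole-number estimated counts from prepDE, without normalization. More genes had 3 counts than 2 or 4, and more 6 than 5, which makes small differences look more precise than the fragments allow. The annotation release and the strand setting are not given in the sources used here. Of 56953 identifiers, 52029 matched GENCODE M21 without their version and 35 with it, so coordinates, exon lengths and coding sequences are those of GENCODE M21, by identifier. Promoter and protein sequences were not used here.

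Groups came from the labels. Counts were fitted with edgeR 4.0.16 in R 4.3.3 (TMM, filterByExpr, quasi-likelihood, 17 libraries, no covariate), with Benjamini-Hochberg adjustment over 23062 genes, and CPM used TMM library sizes. The members and lists were chosen with earlier results of these data known. The text names all members, Chga, Mapt and Prnp, the list genes called, the 3 genes most like each member (log2 CPM, prior count 2) and up to 3 defining markers of a list that moved with a member. Gh and Prl were named after their values were seen.

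DESeq2 1.42.0, its size factors in edgeR, no filter, a floor of 10 counts per library, a fit to the 2 groups compared alone, a robust fit, limma 3.58.1 voom with quality weights, a replicate block, the striatum marker level and the Ddx3y level as covariates, near-identical libraries averaged and each library left out were the alternatives. Added after seeing the data were fits to libraries with Ddx3y above or below 1 CPM, its interaction with group, the claustrum and deep-layer marker covariate, and leaving out CgA-KO/hTau replicates 1 to 3. The scripts were tested on simulated counts. Tables were made in Python 3.11.15 (pandas 2.3.3) and figures with matplotlib 3.10.9.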

Additional observations from a re-analysis of the deposited data

Results flagged for a closer look

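In 24 tests of a single library against the others of its group (8 genes in 3 groups), 1 stood out beyond Dixon's 95% critical value: Pdyn in hTau replicate 3 was at 27.0 CPM, with the other hTau libraries at 34.4 to 35.8 CPM. Chance gives about 1 in 20 such groups. The difference in Penk between CgA-KO/hTau and hTau was larger by 2.72 on the log2 scale in the libraries with Ddx3y above 1 CPM than in those below it, by the interaction term of the edgeR fit (SE 0.56, adjusted p = 0.00715). In that fit the same term was called for 2687 of 23062 genes, and for the difference of WT from hTau for 13. The interaction fit was not run with the near-identical libraries averaged.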

How the results depend on the processing

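Of 24 fold changes of single members, 2 (Pomc and Oprd1 in WT against hTau, neither called) kept both their direction and their side of the threshold under every alternative run. Of 765 values, 667 did, 66 lost a call and 19 gained one. A further 2 of a called difference changed sign and lost the call, and 11 of an uncalled difference changed sign and stayed uncalled. Against 3 members called in WT against hTau, 1 was called with the striatum marker covariate and 1 in the libraries with Ddx3y above 1 CPM. With the claustrum and deep-layer covariate 0 were called, with Oprk1 at -0.16 ± 1.10 (SE). Leaving out single libraries gave 2 to 3. Against 4 in CgA-KO/hTau against hTau, 7 were called by limma voom, 2 with the striatum covariate, and 0 with near-identical libraries averaged, in the libraries with Ddx3y below 1 CPM, with the claustrum covariate (Oprk1 at -0.89) or without CgA-KO/hTau replicates 1 to 3, and leaving out single libraries gave 2 to 7. Against 3 in CgA-KO/hTau against WT, 0 were called with only the 2 groups in the fit and 1 in the libraries with Ddx3y below 1 CPM, and leaving out single libraries gave 1 to 4. The fits to fewer libraries and the averaged fit rest on fewer samples, and for the other changes the cause was not tested. With the replicate block, 3, 2 and 1 members were called. The numbers do not pair the libraries, since of 16 same-number pairs 2 had deviations correlated above 0.1 (r from -0.09 to 0.41) and 5 of 17 libraries correlated best with their own number. All genes called ranged from 63 to 4325 in WT against hTau (1361 in the fit reported), from 30 to 6713 in CgA-KO/hTau against hTau (2242) and from 266 to 5311 in CgA-KO/hTau against WT (1489), and leaving out WT replicate 5 gave 632 in the first. DESeq2, over the genes it fits, had a median of all genes of 0.13 in CgA-KO/hTau against hTau (0.026 in the fit reported). With its size factors in edgeR the median of all genes in WT against hTau stayed near 0, at -0.0055 (-0.0097 in the fit reported). Depth limits Pomc most, with under 9 counts in 3 libraries.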
